A study of Homo sapiens with 12 samples.

Results

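Autophagy and mitophagy genes were followed in 2 established lines of androgen-independent prostate cancer, PC3 and DU145, after treatment with pentamidine, an aromatic diamidine used against protozoan and fungal infection. The 10 genes were chosen by name, 7 for autophagy (SQSTM1, NBR1, MAP1LC3B, GABARAPL1, ULK1, WIPI1 and ATG16L1) and 3 for mitophagy (PINK1, BNIP3 and BNIP3L), and all 10 had a row among the 32077 genes counted. Cells labelled PC3 and cells labelled DU145, both described as wild type, received vehicle or 2.5 μmol/L pentamidine for 48 hours in 6-well plates, with 3 samples in each of the 4 groups and 12 in all. Poly(A) RNA was sequenced, and the values are reads counted per gene. Each line stands for 1 tumour, and nothing in the labels says that the samples of a group came from separate cultures, so the p-values measure the spread between these samples, which may be technical.

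Autophagy delivers parts of the cytoplasm to the lysosome in a double-membrane vesicle, the autophagosome. The ULK1 kinase complex starts the process, phosphoinositide-binding proteins such as WIPI1 mark the growing membrane, and the ATG16L1 complex attaches ATG8 proteins, among them the products of MAP1LC3B and GABARAPL1, to the lipid of that membrane. Receptors such as SQSTM1 (p62) and NBR1 bind both ubiquitinated cargo and ATG8 proteins, and are themselves degraded with the cargo. Mitophagy is the form that removes mitochondria, either through PINK1, a kinase that gathers on damaged mitochondria and sets off their ubiquitination, or through BNIP3 and BNIP3L (NIX), receptors of the outer mitochondrial membrane. The measurements below are RNA levels, and neither protein nor autophagic flux was measured in these files.

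Library totals lay between 13514195 and 15131436 counts, and no library stood apart in depth. Markers of the lines went in part against their labels. KRT8 and KRT18, keratins of simple epithelium, were counted in every library, KRT8 at 16.1 to 21.4 CPM (read counts relative to the TMM-scaled library total) in the 6 libraries labelled PC3 and 1814 to 2791 CPM in the 6 labelled DU145. The other 3 of 5 epithelial markers, KRT19, EPCAM and CDH1, had at most 10 counts in any library of either label. Of the autophagy genes, GABARAP (2 to 11 counts) and VAMP8 (1 to 6 counts) were also near 0 in every library. Whether these low values come from the cells or from the counting was not tested, and counts of single genes may be wrong. The names PC3 and DU145 are used below as the names on the labels, and each line's results are given separately. Markers of immune, fibroblast and endothelial cells, 5 genes, summed to 4 to 16 counts in PC3 libraries and 26 to 41 in DU145 libraries. The androgen-regulated KLK3 and KLK2 had at most 3 counts in any library.

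Promoters from RefSeq (GRCh38.p14, 250 bases before to 50 after a start) were found for 8 of the 10 genes, at 11 start sites, and PINK1 and BNIP3L had none in the table. They were searched on both strands for 6 motifs, TCACGTGA (bound by TFEB and TFE3), the E-box CACGTG, the hypoxia-response cores ACGTG and GCGTG, TGATGNAA (bound by ATF4 with C/EBP proteins) and TGACNNNGC (the antioxidant response element), of which TCACGTGA contains CACGTG and CACGTG contains ACGTG on each strand. Of the 8 genes, 4 held at least 1 motif and 4 (SQSTM1, GABARAPL1, WIPI1 and ATG16L1) held none. Stretches of 2 promoters are shown. BNIP3 was taken because it was the gene that fell in both lines. ULK1 was taken because it rose and the 250 bases before its start lay outside every exon of GENCODE release 29. Capitals mark the matched motifs, and both run 5′ to 3′ on the strand of the gene. The BNIP3 stretch, chr10:131982014-131982173 on the minus strand, lies just upstream of the annotated gene, and the ULK1 stretch, chr12:131894372-131894621 on the plus strand, lies just upstream of the gene as well.
BNIP3: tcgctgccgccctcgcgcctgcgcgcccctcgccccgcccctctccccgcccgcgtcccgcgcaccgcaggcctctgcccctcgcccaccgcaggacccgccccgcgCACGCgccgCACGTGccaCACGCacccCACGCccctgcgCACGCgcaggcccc
ULK1: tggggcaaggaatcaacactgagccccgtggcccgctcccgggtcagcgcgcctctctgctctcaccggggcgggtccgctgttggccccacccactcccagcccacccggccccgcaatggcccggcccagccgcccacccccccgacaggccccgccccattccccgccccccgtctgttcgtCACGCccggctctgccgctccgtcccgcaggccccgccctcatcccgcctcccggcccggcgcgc
BNIP3 held 1 CACGTG, with ACGTG read on each strand, and 4 GCGTG, printed as CACGC because the match is on the other strand. ULK1 held 1 GCGTG, NBR1 held 1 at each of 2 start sites, and MAP1LC3B held 4 GCGTG and 1 TGACNNNGC. No promoter of these genes held TCACGTGA or TGATGNAA. Of 35116 RefSeq promoters of the same length, 0.98% held TCACGTGA, 7.26% CACGTG, 21.4% ACGTG, 36.5% GCGTG, 3.62% TGATGNAA and 13.3% TGACNNNGC, so that most of these matches are of common motifs. A match describes the sequence and is not evidence of binding.

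In PC3 cells, 8 of the 10 genes rose with pentamidine, 1 fell (BNIP3) and 1 (ATG16L1) did not pass the test. These are bulk libraries, in which fewer cells of a type and less RNA per cell cannot be told apart. The test was edgeR's quasi-likelihood test on each line's 6 libraries with Benjamini-Hochberg adjustment over all genes tested, and a gene was called at an adjusted p below 0.05. In DU145 cells, 5 rose, 1 fell (again BNIP3) and 4 did not pass, a split of 5 and 0 when scaled by library size alone. Over all genes tested in PC3 cells, 21.7% were called higher and 21.7% lower. The shares in DU145 cells were 17.2% higher and 16.8% lower. The median log2 fold change of the 10 genes was 0.58 in PC3 cells against 0.01 over all genes, and 0.17 in DU145 cells against 0.01. The genes were chosen with earlier results of these data known, so the counts and medians describe them and are not independent evidence of a direction. Only MAP1LC3B in PC3 cells also passed an absolute log2 fold change of 1, a size reached with that p by 4.75% of the genes tested in PC3 cells, and by 2.03% of those in DU145 cells. The 2 groups did not overlap for 9 of the 10 genes in PC3 cells and for 7 in DU145 cells, where 52.1% and 44.0% of all genes did not overlap. All 6 genes called in both lines changed in the same direction in both. Of the 13125 genes tested in both lines, 22.0% were called in both, and 89.0% of those went the same way, so a shared direction was usual among all genes.

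**Figure D1:**
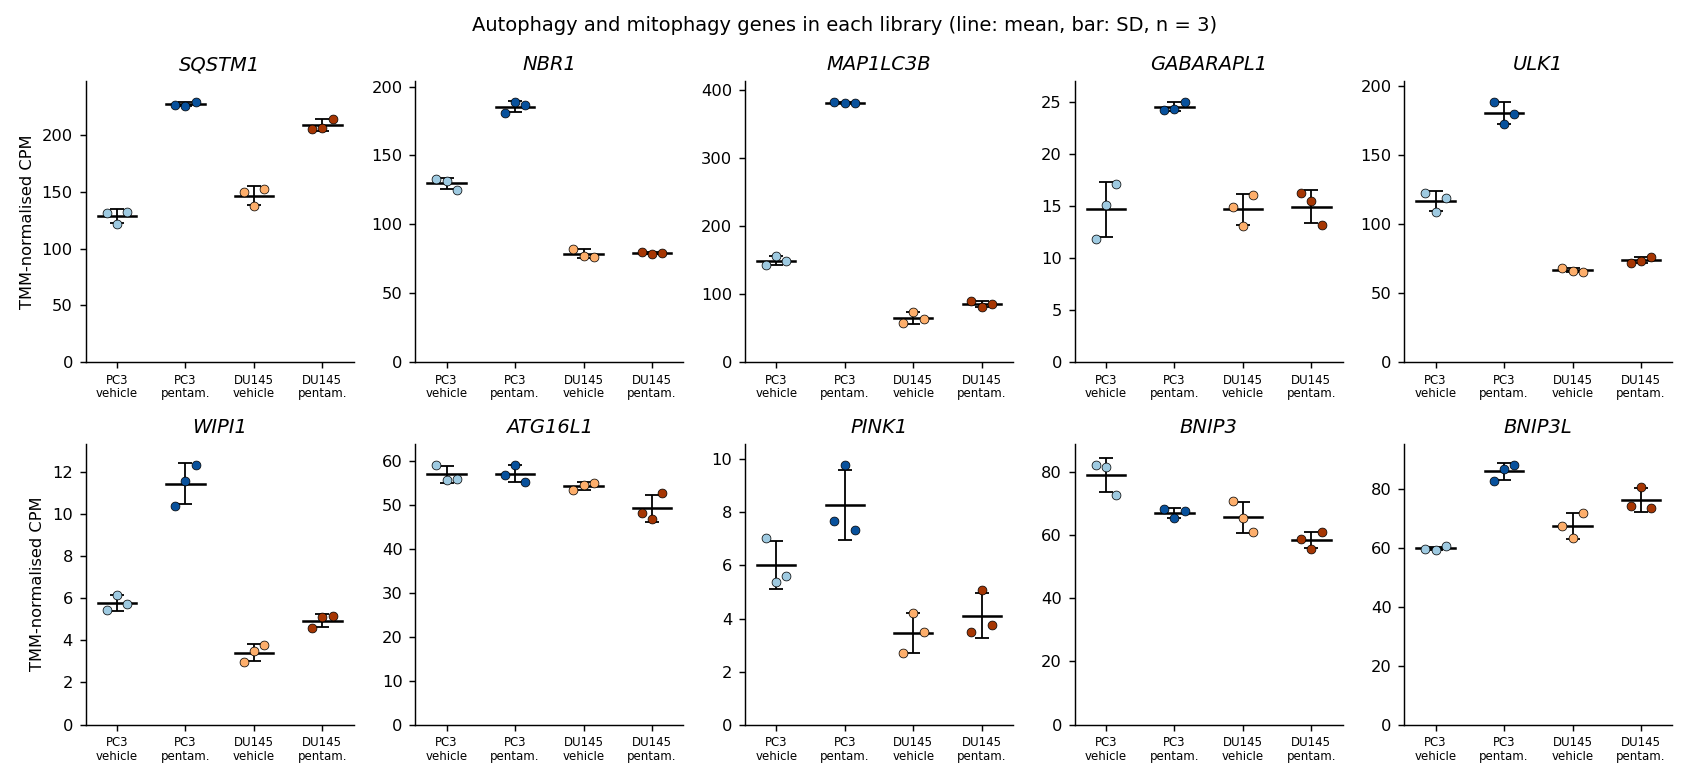
TMM-normalised CPM (vertical axis from 0) of the 10 genes in the 12 libraries, 1 panel per gene; points are libraries, horizontal lines group means and bars the SD (n = 3). In PC3 cells the pentamidine points lie clear of the vehicle points for every gene but ATG16L1, and MAP1LC3B shows the widest step, from a mean of 149 to 382 CPM.

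The receptors rose in PC3 cells, and SQSTM1 also in DU145 cells. SQSTM1 (chr5:179806398-179838078, plus strand, GRCh38) links ubiquitinated cargo to the autophagosome. Its level was 131, 121 and 132 CPM in vehicle-treated and 227, 226 and 230 CPM in pentamidine-treated PC3 cells. In DU145 cells it was 150, 137 and 153 CPM with vehicle and 205, 207 and 215 CPM with pentamidine. No treated library overlapped a vehicle library in either line, and the log2 fold change was 0.83 (SE 0.05, adjusted p = 7.49e-10) in PC3 cells and 0.51 (SE 0.04, adjusted p = 3.07e-16) in DU145 cells. SQSTM1 shares 20.7% of its exon length with MRNIP on the opposite strand, and the strand setting of the counting is not given in the sources used here, so reads of the pair cannot be told apart. MRNIP itself changed by -0.05 (adjusted p = 0.576) in PC3 cells and 0.24 (adjusted p = 0.00267) in DU145 cells.

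NBR1 (chr17:43170481-43211689, plus strand), a receptor of similar domain layout, was counted at 133, 131 and 125 CPM in vehicle-treated and 181, 189 and 187 CPM in pentamidine-treated PC3 cells, a log2 fold change of 0.52 (SE 0.05, adjusted p = 2.63e-07). In DU145 cells its values overlapped, 82.2, 77.3 and 76.1 CPM against 80.0, 78.4 and 79.2 CPM, and the log2 fold change of 0.02 had a 95% interval of -0.08 to 0.11. The difference between the lines' effects was 0.50 (SE 0.07, adjusted p = 1.64e-06) for NBR1 and 0.32 (SE 0.07, adjusted p = 0.000749) for SQSTM1, both larger in PC3 cells, in a fit of all 12 libraries with Benjamini-Hochberg adjustment in edgeR. Within a library, the ratio of SQSTM1 to NBR1 reads, a pair picked after their values were seen, was 0.991 ± 0.068 with vehicle and 1.23 ± 0.03 with pentamidine in PC3 cells (SD, n = 3). In DU145 cells it was 1.87 ± 0.123 and 2.63 ± 0.0751.

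MAP1LC3B (chr16:87383995-87404779, plus strand), which encodes LC3B, the ATG8 protein most used to mark autophagosomes, had the largest increase of the 10 genes in PC3 cells. It went from 143, 156 and 149 CPM to 383, 381 and 381 CPM, a log2 fold change of 1.36 (SE 0.05, adjusted p = 7.86e-13), or 2.57-fold. The DU145 values went from 57.1, 73.2 and 63.5 CPM to 89.4, 80.4 and 85.6 CPM, a log2 fold change of 0.40 (SE 0.06, adjusted p = 9.23e-08). The 3 treated PC3 libraries lay together, far above the others, the DU145 groups lay closer to one another but did not overlap, and the effect was larger in PC3 cells by 0.96 (SE 0.09, adjusted p = 2.02e-09). Of all genes tested, 1.93% had a higher log2 fold change in PC3 cells.

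GABARAPL1 (chr12:10212458-10223130, plus strand), an ATG8 family gene of the GABARAP branch, was expressed at 11.9, 15.1 and 17.1 CPM in vehicle-treated and 24.3, 24.4 and 25.0 CPM in pentamidine-treated PC3 cells. It rose there by 0.75 (SE 0.11, adjusted p = 4.49e-05), whereas in DU145 cells 14.9, 13.1 and 16.1 CPM became 16.2, 15.5 and 13.2 CPM, overlapping, with a 95% interval of -0.18 to 0.24. The difference between the lines was 0.72 (SE 0.16, adjusted p = 0.00147). The reads of MAP1LC3B exceeded those of GABARAPL1 by 10.3 ± 1.64-fold in vehicle-treated and 15.5 ± 0.306-fold in treated PC3 cells, and by 4.46 ± 0.983-fold and 5.74 ± 0.672-fold in DU145 cells (SD, n = 3). The DU145 ratios overlapped, with 3.83, 5.59 and 3.95 in vehicle-treated and 5.52, 5.2 and 6.49 in treated libraries. Per length, the share of MAP1LC3B among all ATG8 family genes was 47.4% ± 1.58 with vehicle and 64.4% ± 0.992 with pentamidine in PC3 cells, and 37.7% ± 2.51 and 43.3% ± 1.33 in DU145 cells. That of GABARAPL2 was 33.6% ± 0.877 and 18.4% ± 0.326 in PC3 cells, and 41.3% ± 1.5 and 35.2% ± 0.478 in DU145 cells, although its own level was not called changed in either line. GABARAP itself had 2 to 11 counts in any library and shares exons with another annotated gene, so its part of the family is uncertain, as is that of MAP1LC3B2, whose sequence is close to MAP1LC3B.

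**Figure D2:**
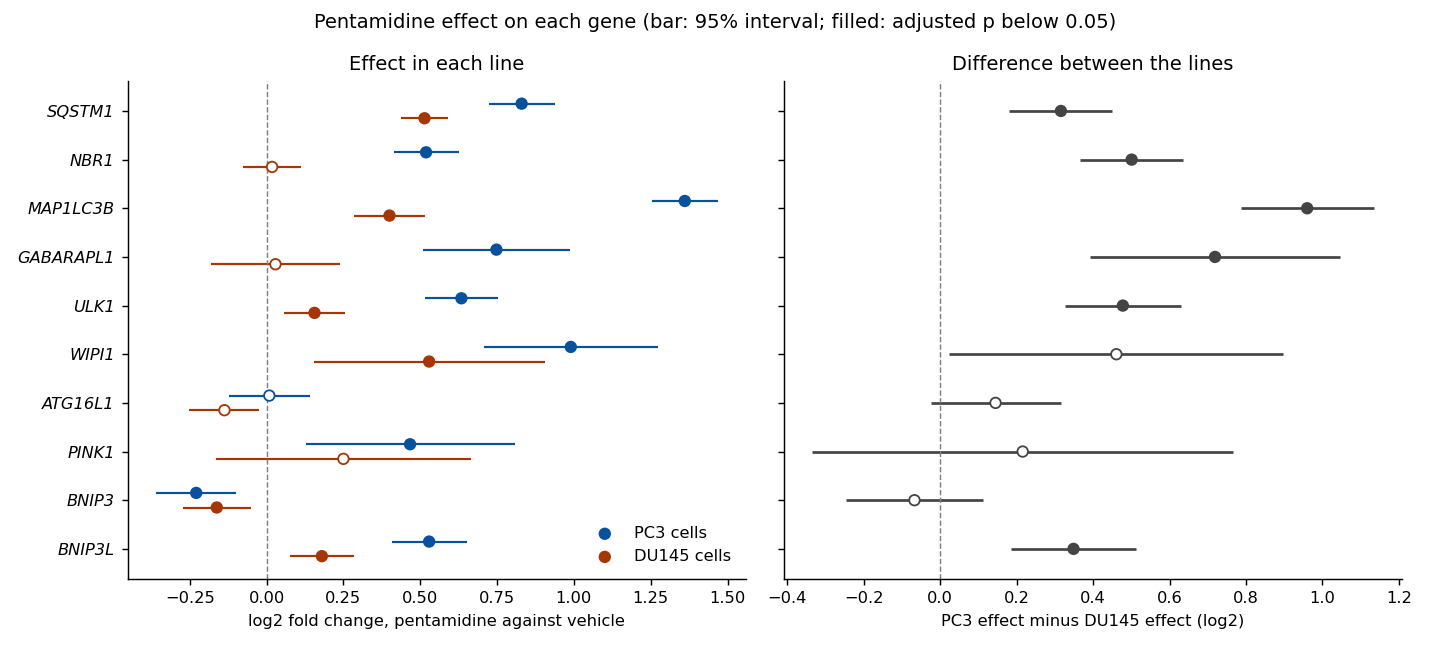
Left, log2 fold change of pentamidine against vehicle in PC3 (blue) and DU145 (brown) cells for the 10 genes; right, the PC3 effect minus the DU145 effect. Bars are 95% intervals, filled points have an adjusted p below 0.05, and the dashed line marks 0. MAP1LC3B in PC3 cells lies farthest from 0, and the 6 filled points on the right, from 0.32 to 0.96, all lie above 0.

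Among genes of initiation and of the growing membrane, ULK1 and WIPI1 rose in both lines and ATG16L1 did not pass in either. ULK1 (chr12:131894651-131923167, plus strand), the kinase that starts autophagy, went from 123, 109 and 119 CPM to 189, 173 and 180 CPM in PC3 cells. Its log2 fold change there was 0.63 (SE 0.06, adjusted p = 1.01e-07). In DU145 cells it went from 68.0, 66.0 and 65.3 CPM to 71.8, 73.4 and 76.0 CPM, a change of 0.16 (SE 0.05, adjusted p = 0.0103). Its groups did not overlap in either line, and its effect was larger in PC3 cells by 0.48 (SE 0.07, adjusted p = 1.92e-05). The DU145 call was lost without vehicle replicate 3 (adjusted p = 0.0525) or pentamidine replicate 3 (adjusted p = 0.0738).

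WIPI1 (chr17:68420948-68457513, minus strand), which binds the phosphoinositides of the forming autophagosome, had 40 to 183 counts per library. It went from 5.42, 6.15 and 5.74 CPM to 10.4, 11.6 and 12.3 CPM in PC3 cells (log2 fold change 0.99, SE 0.13, adjusted p = 1.37e-05). The DU145 values went from 2.98, 3.50 and 3.78 CPM to 4.57, 5.09 and 5.14 CPM (0.53, SE 0.19, adjusted p = 0.0235). The groups did not overlap in either line. The difference between the lines was 0.46 with a 95% interval of 0.02 to 0.90 and did not pass after adjustment (adjusted p = 0.135). WIPI1 shares 24.3% of its exon length with ARSG on the opposite strand, which changed by 0.56 (adjusted p = 0.00347) in PC3 cells and 0.23 (adjusted p = 0.265) in DU145 cells. Its part in the change of WIPI1 was not tested. The DU145 call of WIPI1 was lost with DESeq2 (adjusted p = 0.075) and without vehicle replicate 1, pentamidine replicate 2 or pentamidine replicate 3 (adjusted p = 0.105, 0.0711 and 0.0691).

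ATG16L1 (chr2:233210051-233295674, plus strand), a scaffold of the complex that lipidates ATG8 proteins, was not called in either line. In PC3 cells its 59.1, 55.6 and 55.9 CPM with vehicle and 56.8, 59.1 and 55.2 CPM with pentamidine overlapped, and the log2 fold change was 0.01 (95% interval -0.12 to 0.14, adjusted p = 0.922). In DU145 cells 53.3, 54.4 and 55.0 CPM became 48.1, 46.8 and 52.6 CPM, which did not overlap, with a log2 fold change of -0.14 (95% interval -0.25 to -0.02, adjusted p = 0.0562).

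The mitophagy genes did not move together. PINK1 (chr1:20633455-20651511, plus strand), the kinase of ubiquitin-dependent mitophagy, had 36 to 138 counts per library and, per kilobase of exon, the lowest level of the 10 genes in every group. In PC3 cells it went from 7.04, 5.37 and 5.60 CPM to 7.69, 9.81 and 7.35 CPM, a log2 fold change of 0.47 (SE 0.16, adjusted p = 0.0266). This call was lost with DESeq2 (adjusted p = 0.0517) and without vehicle replicate 2, vehicle replicate 3 or pentamidine replicate 2 (adjusted p = 0.11, 0.071 and 0.153). In DU145 cells it was 2.68, 4.20 and 3.51 CPM with vehicle and 3.50, 5.09 and 3.75 CPM with pentamidine, overlapping, with a log2 fold change of 0.25 and a 95% interval of -0.16 to 0.66. PINK1 shares 39.4% of its exon length with PINK1-AS on the opposite strand, which was not called in PC3 cells (-0.18, adjusted p = 0.559) or in DU145 cells (0.30, adjusted p = 0.293).

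BNIP3 (chr10:131966455-131982013, minus strand), whose transcription is known to be raised by hypoxia, was the gene that fell. It went from 82.2, 81.5 and 72.6 CPM to 68.1, 65.2 and 67.7 CPM in PC3 cells, a log2 fold change of -0.23 (SE 0.06, adjusted p = 0.00643). In DU145 cells it went from 70.6, 65.2 and 60.9 CPM to 58.55, 55.6 and 60.8 CPM, a change of -0.16 (SE 0.06, adjusted p = 0.0172). The DU145 groups all but touched, the lowest vehicle library being at 60.86 CPM and the highest treated one at 60.82 CPM. The DU145 call was lost with DESeq2 (adjusted p = 0.0548), with scaling by library size alone (adjusted p = 0.11) and with limma on log2(CPM + 1) (adjusted p = 0.108), and without vehicle replicate 1 or pentamidine replicate 2 (adjusted p = 0.142 and 0.106). The lines' effects differed by -0.07 with a 95% interval of -0.25 to 0.11. Its 23 pseudogene copies in the table summed to 5.84% of its reads.

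BNIP3L, on chr8, which encodes NIX, rose in PC3 cells from 59.5, 59.4 and 60.6 CPM to 82.8, 87.0 and 88.4 CPM, a log2 fold change of 0.53 (SE 0.06, adjusted p = 1.14e-06). The DU145 values went from 67.3, 63.3 and 72.0 CPM to 74.2, 80.9 and 73.7 CPM, a change of 0.18 (SE 0.05, adjusted p = 0.00494). That call was lost without vehicle replicate 2 or pentamidine replicate 2 (adjusted p = 0.0607 and 0.0952). Its effect was larger in PC3 cells by 0.35 (SE 0.08, adjusted p = 0.00194). The ratio of BNIP3L to BNIP3 reads within a library, picked after their values were seen, was 0.724, 0.729 and 0.835 in vehicle-treated PC3 cells and 1.22, 1.33 and 1.31 after pentamidine, so BNIP3 led in every vehicle library and BNIP3L in every treated one. In DU145 cells the ratio was 0.954, 0.971 and 1.18 with vehicle and 1.27, 1.45 and 1.21 with pentamidine, without overlap.

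**Figure D3:**
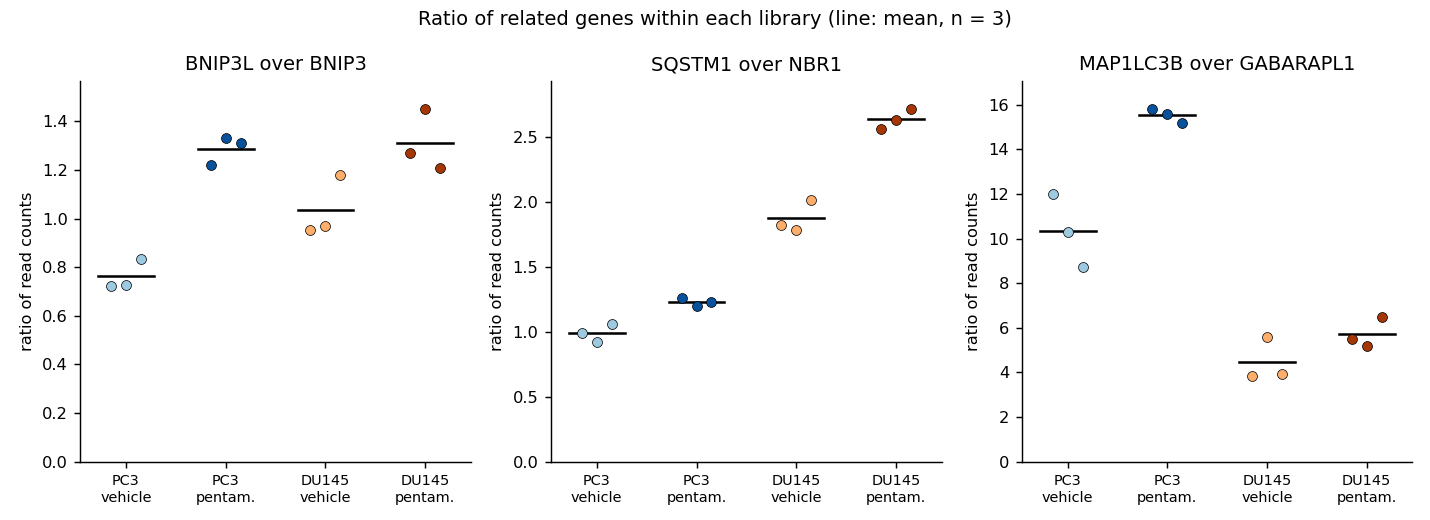
Ratio of the read counts of 2 related genes within each library (vertical axes from 0; points are libraries, lines group means, n = 3). The mean of BNIP3L over BNIP3 is 0.763 with vehicle and 1.29 with pentamidine in PC3 cells, and 1.03 and 1.31 in DU145 cells.

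Between the lines, 6 of the 10 effects differed (10.2% of all genes were called larger in PC3 cells and 10.3% smaller), those of SQSTM1, NBR1, MAP1LC3B, GABARAPL1, ULK1 and BNIP3L, each larger in PC3 cells. The effects of WIPI1, ATG16L1, PINK1 and BNIP3 were not called different, which does not show that they were alike. The difference of PINK1 was 0.22 with a 95% interval of -0.34 to 0.77. In 9 of the 10 genes the log2 fold change was the larger one in PC3 cells, whether or not the difference was called. The median difference was 0.405 over the 10 genes and -0.009 over all genes tested. The genes were chosen with earlier results of these data known, so these values only describe them.

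The lines also differed without drug. Of the 10 genes, 6 were higher and 2 lower in vehicle-treated PC3 than in vehicle-treated DU145 cells, in a comparison where 31.5% of all genes were called higher and 33.8% lower. Scaling by library size alone gave 6 higher and 1 lower, without BNIP3L. MAP1LC3B was higher by 1.18 on the log2 scale (SE 0.07, adjusted p = 5.73e-10), ULK1 by 0.79 (adjusted p = 3.74e-09), PINK1 by 0.76 (adjusted p = 0.00237), WIPI1 by 0.73 (adjusted p = 0.00145), NBR1 by 0.70 (adjusted p = 6.82e-09) and BNIP3 by 0.24 (adjusted p = 0.00465). SQSTM1 was lower by 0.22 (log2 difference -0.22, adjusted p = 0.00244) and BNIP3L by 0.20 (-0.20, adjusted p = 0.00945). The call of BNIP3L was lost with library size alone (adjusted p = 0.1), with limma (adjusted p = 0.104) and without DU145 vehicle replicate 3 (adjusted p = 0.078). BNIP3L shares 7.66% of its exon length with PNMA2 on the opposite strand. PNMA2 had 0 counts in vehicle-treated PC3 libraries and 220 to 230 in vehicle-treated DU145 libraries. The part of PNMA2 in the BNIP3L difference was not tested. GABARAPL1 and ATG16L1 were not called. Per kilobase of exon, the order of levels in vehicle-treated PC3 cells was MAP1LC3B (28.1 CPM per kb), SQSTM1 (16.8), NBR1 (15.4), ULK1 (15.3), BNIP3 (14.8), BNIP3L (13.9), ATG16L1 (9.41), GABARAPL1 (3.60), WIPI1 (1.70) and PINK1 (1.24), in which NBR1, ULK1, BNIP3 and BNIP3L did not each separate from the next over the 3 libraries. In vehicle-treated DU145 cells SQSTM1 came first at 19.2 CPM per kb followed by BNIP3L (15.7), BNIP3 (12.3) and MAP1LC3B (12.2), of which the last 2 did not separate, and PINK1 was again last at 0.716.

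The wider pathway was read from 70 further genes in 9 roles. In PC3 cells 64 were tested, of which 25 rose and 9 fell, with a median log2 fold change of 0.13, and in DU145 cells 65 were tested, of which 9 rose and 14 fell, with a median of -0.01. The shares were 39.1% higher and 14.1% lower in PC3 cells, beside 21.7% and 21.7% of all genes, and 13.8% and 21.5% in DU145 cells, beside 17.2% and 16.8%, so that the DU145 shares lay near those of all genes. Scaling by library size alone turned the DU145 split to 13 that rose and 9 that fell. Between the lines 66 pathway genes were tested, and the effect was called larger in PC3 cells for 18 and smaller for 2. These were 27.3% and 3.03%, beside 10.2% and 10.3% of all genes. With library size alone the split was 12 and 5. WDR45 (WIPI4), a relative of WIPI1, was the largest riser and the only one past a log2 fold change of 1, with 1.31 (SE 0.07, adjusted p = 1.98e-10) in PC3 cells and 0.52 (adjusted p = 1.33e-09) in DU145 cells. Its mean was 40.8 ± 4.33 CPM in vehicle-treated and 100.5 ± 3.51 CPM in treated PC3 cells (SD, n = 3). All 3 tested partners of ULK1, ATG13, RB1CC1 and ATG101, rose in PC3 cells by 0.32 to 0.38 and none passed in DU145 cells. ULK2 had 0 counts in the 6 PC3 libraries and 19 to 41 in DU145 libraries.

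In PC3 cells 4 of the 9 other receptors tested rose and 1 fell. In DU145 cells 2 of 10 rose and 4 fell. CALCOCO2 (NDP52) rose by 0.99 (adjusted p = 7.18e-10) in PC3 and 0.44 (adjusted p = 1.67e-09) in DU145 cells, and TAX1BP1 by 0.42 and 0.21. Among the 4 that fell in DU145 cells were NCOA4 (-0.187), SEC62 (-0.177) and WDFY3 (-0.165). OPTN (optineurin), a receptor in ubiquitin-dependent mitophagy, rose in PC3 cells by 0.30 (adjusted p = 0.00063) and fell in DU145 cells (-0.62, adjusted p = 5.42e-16), the largest called difference between the lines in the pathway (0.92, SE 0.07, adjusted p = 2.76e-10). Its mean was 55.6 ± 1.49 CPM rising to 68.3 ± 1.99 in PC3 cells and 96.7 ± 2.67 falling to 62.7 ± 1.76 in DU145 cells. ATG7, the E1-like enzyme of ATG8 conjugation, and TMEM41B, an endoplasmic reticulum scramblase, likewise went opposite ways, with differences of 0.49 (adjusted p = 3.74e-05) and 0.48 (adjusted p = 9.62e-06). Of 6 transcription factors of these genes, 2 rose and 1 (MITF) fell in PC3 cells, and 1 rose in DU145 cells. TFE3 rose by 0.79 (adjusted p = 8.17e-10) in PC3 cells, with a change of -0.09 (adjusted p = 0.0687) in DU145 cells. FOXO3 rose by 0.89 and 0.18. TFEB, at 5 to 14 counts in PC3 libraries, FOXO1 and ZKSCAN3 were not called in either line. In all, 16 pathway genes were called in both lines, 8 higher in both, 5 lower in both (ATG2A, PGAM5, PIK3R4, SEC62 and USP15) and 3 in opposite directions. These 16 were 25.4% of the 63 tested in both lines, near the 22.0% of all genes, of which 9.94% were higher in both, 9.62% lower in both and 2.42% opposite. PIK3R4, a subunit of the class III PI3-kinase, fell by 0.53 in PC3 cells and by 0.20 in DU145 cells. MITF, ATG2A and PGAM5 fell in PC3 cells (-0.34, -0.30 and -0.28), and in DU145 cells ATG4A (-0.54), RUBCN (-0.26) and TBK1 (-0.24) fell. FKBP8 rose by 0.24 in PC3 and 0.35 in DU145 cells, and MAP1LC3A by 0.75 in PC3 and 0.44 in DU145 cells. MAP1LC3B2 rose by 0.98 (adjusted p = 0.00722) in PC3 cells, from 24 to 34 counts with vehicle to 37 to 75 with pentamidine. VMP1 changed by -0.22 in PC3 and 0.06 in DU145 cells, a difference of -0.27 (adjusted p = 0.00104).

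**Figure D4:**
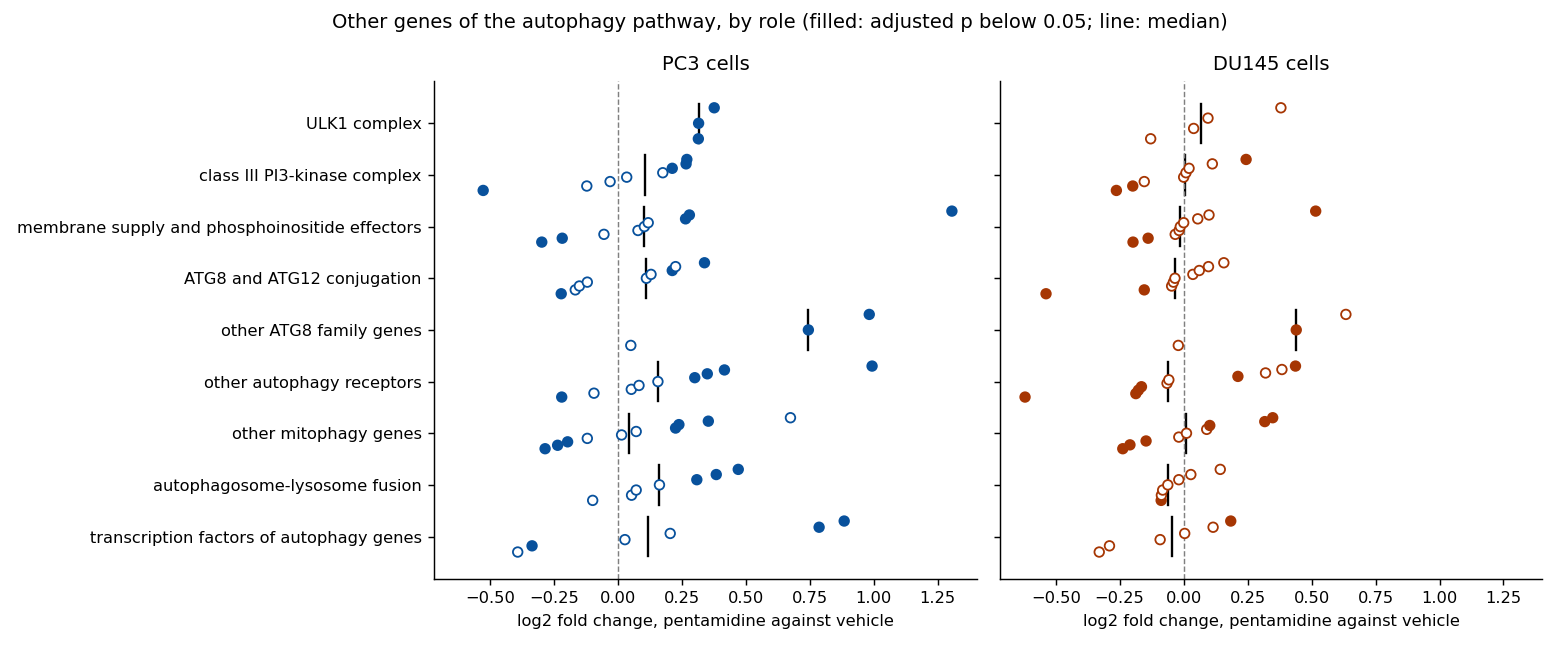
Log2 fold change of pentamidine against vehicle for the other pathway genes by role, in PC3 (left) and DU145 cells (right). Filled points have an adjusted p below 0.05 and the black line is the role's median. The 3 tested genes of the ULK1 complex lie above 0 in PC3 cells, with a median of 0.32. In DU145 cells the 4 tested run from -0.129 (ATG101) to 0.38 (ULK2, not tested in PC3 cells), with a median of 0.07.

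The genes whose levels ran most alike over the 12 libraries were sought for the 3 genes with the widest span of group means, by the root mean square difference of centred log2 CPM over 15226 genes. For MAP1LC3B (a span of 2.57 on the log2 scale) they were GADD45A (0.131), CDKN2B (0.186), ARSD (0.186) and FGF2 (0.200). For WIPI1 they were CAT (0.0915), NCOA7, ABHD4 and RHBDD1, and for ULK1 they were COG5 (0.0782), NBR1 (0.0969), AC126755.1 and SNX19. These 12 libraries share 2 lines and 1 treatment, so likeness is a description of level only.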

How the data were processed

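Whole-number read counts per gene were deposited by the authors, without normalization. The submitters' notes name HISAT2 2.1.0 and GRCh38, and the counting program, annotation release and strand setting are not given in the sources used here. The table named for FPKM holds CPM and was not used, nor were the tables of the authors' own comparisons (fold changes and p-values). Entries with 1 name and the same counts were merged (33595 to 32077 genes), and 44 overflow lines naming no gene were left out. edgeR 4.0.16 in R 4.3.3 was run with TMM normalization, the filterByExpr filter (minimum count 10) and Benjamini-Hochberg adjustment over all genes tested. Intervals are 95% and use the fit's own degrees of freedom. Alternatives were DESeq2 1.42.0, limma 3.58.1 on log2(CPM + 1), RLE factors, library size alone, no mitochondria-encoded genes, no filter, 10 counts in every sample, 1 fit of all 12 samples, a replicate block, an adjusted p below 0.01 and single samples left out. Scripts were tested on simulated counts. The 10 genes and the 70 pathway genes were chosen with earlier results of these data known. All 10 genes are named, with pathway genes past a log2 fold change of 1, the 4 largest changes per line and direction, the 3 largest differences between the lines per direction, examples of roles with few called genes, and 3 genes' closest matches. SDs are of CPM or of ratios over the 3 samples of a group. Replicate numbers were not taken as pairs. Of mitochondria-encoded genes, 28 had a row. A few other genes examined are not reported here.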

Additional observations from a re-analysis of the deposited data

Results flagged for a closer look

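For 6 of the 10 genes the pentamidine effect differed between the lines by a test of the difference itself (edgeR, all 12 libraries, adjusted over all genes). The PC3 effect minus the DU145 effect was 0.32 for SQSTM1, 0.50 for NBR1, 0.96 for MAP1LC3B, 0.72 for GABARAPL1, 0.48 for ULK1 and 0.35 for BNIP3L on the log2 scale.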

How the results depend on the processing

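Members and pathway genes were recounted under the alternatives, and 118 of the counts stayed within 1.5 times the main one. At an adjusted p below 0.01, 3 of the genes were called in DU145 cells in place of 6, 14 of the pathway genes in DU145 cells in place of 23 and 12 of the pathway genes differed between the lines in place of 20. Leaving out single samples, the count in DU145 cells ranged from 3 to 6, the lowest without pentamidine replicate 2. The 6 genes called between the lines stayed 6 in number under every alternative run. With the replicate number as a block (replicate block), 9 genes were called in PC3 cells, 6 in DU145 cells, 6 between the lines and 8 between vehicle-treated lines, and 31, 23 and 17 of the pathway genes in PC3 cells, DU145 cells and between the lines, so no count moved by over 1.5 times. Same-numbered samples did not deviate together (correlations of their deviations from the group means -0.073 to 0.039), and 1 of 6 PC3 samples, 0 of 6 DU145 samples and 3 of 6 vehicle samples correlated best with their own number. Changes of sign were limited to values near 0 that were not called. ATG16L1 in PC3 cells was -0.01 with library size alone, -0.009 with limma, and between -0.021 and 0.034 with a sample left out. GABARAPL1 in DU145 cells was -0.049 to 0.108 and NBR1 in DU145 cells -0.005 to 0.045 with a sample left out. GABARAPL1 between vehicle-treated lines was 0.053 with library size alone, 0.042 with limma and -0.133 to 0.117 with a sample left out. ATG16L1 in DU145 cells was called with RLE normalization (adjusted p = 0.0474), without mitochondria-encoded genes (adjusted p = 0.0488) and without pentamidine replicate 3 (adjusted p = 0.0174). Library size alone shifted the median of all genes by 0.0497 in DU145 cells and 0.0802 between vehicle-treated lines. WIPI1 and PINK1, with under 200 counts in a library, are the least precise. The causes were not tested.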
